A study of Homo sapiens with 20 samples.

Results

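The genes described here are 34 known targets of p53, taken by symbol from a fixed list, and 32 of them were measured among the 18417 genes of the array table. Each was represented by the 1 transcript cluster (a set of probes for a gene) whose annotation held that symbol alone. BTG2 and FDXR were not analysed here. The cells were LNCaP, a human prostate cancer line with a working androgen response. There were 20 arrays from 7 groups, and the series asks which transcripts under dihydrotestosterone (DHT), a natural androgen, depend on the cell cycle.

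The 5 arrests were made in hormone-proficient medium by 24 h of drug exposure, with 10 nM DHT added over the closing 3 h. For early G1 the drug was PD-0332991 (0.5 µM, n = 3), which inhibits the kinases CDK4 and CDK6. Roscovitine (5 µg/mL, n = 3), an inhibitor of several cyclin-dependent kinases, was used for late G1. Aphidicolin (2 µg/mL, n = 2), which blocks DNA polymerases, gave the early S group. Hydroxyurea (1 mM, n = 3), which drains the pool of deoxynucleotides, gave the late S group. The G2/M group (n = 3) passed through 15 h of aphidicolin, its removal, and 9 h of nocodazole (50 ng/mL), which blocks microtubule assembly. The CDT + DHT group (n = 3) was kept for 72 h in the medium labelled CDT before 3 h of DHT, and the CDT group (n = 3) had ethanol in place of DHT. The phases are those of the labels. All groups come from 1 cell line. No arrest without DHT was analysed here: set against CDT, an arrest differs by drug, medium and hormone together, and set against CDT + DHT by drug and medium, with the closing 3 h of DHT shared.

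The p53 protein is a transcription factor that damaged DNA and stalled replication stabilise through the kinases ATM and ATR. Its targets include its own inhibitor MDM2, genes that halt the cell cycle, genes that repair DNA, death receptors and enzymes of redox and energy metabolism. LNCaP is known to carry wild-type p53. Whether a target responds in a given cell depends on the signal and on the chromatin of the gene.

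Levels are log2(intensity + 1) from here on. The file carries no detection call, and the mean levels of the 32 genes over all arrays ran from 1.60 for TRIM22 to 8.70 for GDF15. Low values such as 0.004 for PLK3 on 1 late S array lie at the bottom of the scale and give no order. Array medians of the intensity lay between 5.44 and 9.09. The arrays also differed within groups along a shared axis. It is the leading principal component of array deviations within groups, taken over 3305 brighter genes, and held 52.5% of their variance. Late S replicate 1 (score 1.83), CDT replicate 1 (1.79) and early G1 replicate 2 (1.68) lay at one end of it, and late S replicate 2 (-1.71), early G1 replicate 1 (-1.09) and CDT replicate 2 (-1.09) at the other. Within groups 30 of the 32 members correlated negatively with the score, and the deviation of their mean level correlated with it at -0.96 over the 20 arrays, a description only. The share of all genes that did so was not examined here, so whether the count is particular to the members cannot be said. In these bulk samples fewer cells of a kind and less RNA per cell cannot be told apart. Luminal prostate markers were bright (list mean 5.43 to 7.27 on single arrays, 7 of 9 listed genes measured), with KLK3 at 9.11 on average. The stromal list (8 genes) had a mean level of 2.35 to 3.73, the leukocyte list (6) 1.58 to 3.52 and the basal list (3 of 4 measured) 2.47 to 4.02 on single arrays. Their part in the results was not tested.

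Of 5 members, the start region is printed here because 4 of them gave the calls of this report and the fifth, AEN, holds the single paired p53 site among the members. Each run is the RefSeq window of GRCh38.p14 from 250 bases before to 50 after the gene's start, 5′ to 3′ on the gene's strand. In the first 4, capitals mark core promoter words searched on both strands: the CCAAT box, the GC box core GGGCGG and the TATA box core TATAAA. In AEN, capitals mark the paired p53 site, 2 adjoining copies of the p53 half-site consensus with 2 mismatches in all.
TP53I3, chr2:24084785-24085084, minus strand: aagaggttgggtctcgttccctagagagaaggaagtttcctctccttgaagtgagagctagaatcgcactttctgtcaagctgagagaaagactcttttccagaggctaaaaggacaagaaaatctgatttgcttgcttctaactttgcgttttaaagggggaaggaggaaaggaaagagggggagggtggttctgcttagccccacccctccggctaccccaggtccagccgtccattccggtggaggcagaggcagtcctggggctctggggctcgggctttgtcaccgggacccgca
DDB2, chr11:47214204-47214503, plus strand: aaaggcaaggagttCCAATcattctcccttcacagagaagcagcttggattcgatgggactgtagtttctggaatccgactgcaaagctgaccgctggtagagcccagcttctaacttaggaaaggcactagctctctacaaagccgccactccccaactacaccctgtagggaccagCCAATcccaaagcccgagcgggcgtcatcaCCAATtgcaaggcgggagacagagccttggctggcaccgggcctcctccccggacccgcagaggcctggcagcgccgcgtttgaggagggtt
GDF15, chr19:18385908-18386207, plus strand: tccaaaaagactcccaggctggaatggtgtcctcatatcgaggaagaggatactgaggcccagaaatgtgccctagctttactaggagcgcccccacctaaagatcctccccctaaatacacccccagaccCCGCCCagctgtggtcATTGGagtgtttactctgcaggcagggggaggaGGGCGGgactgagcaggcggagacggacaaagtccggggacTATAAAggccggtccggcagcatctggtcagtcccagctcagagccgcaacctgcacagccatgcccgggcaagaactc
MDM2, chr12:68807922-68808221, plus strand: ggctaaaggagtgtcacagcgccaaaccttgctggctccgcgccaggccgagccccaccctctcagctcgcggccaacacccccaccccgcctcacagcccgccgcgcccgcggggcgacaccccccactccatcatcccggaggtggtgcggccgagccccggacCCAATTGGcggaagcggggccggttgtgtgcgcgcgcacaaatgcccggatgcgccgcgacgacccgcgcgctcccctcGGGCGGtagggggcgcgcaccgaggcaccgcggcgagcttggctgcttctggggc
AEN, chr15:88621090-88621389, plus strand: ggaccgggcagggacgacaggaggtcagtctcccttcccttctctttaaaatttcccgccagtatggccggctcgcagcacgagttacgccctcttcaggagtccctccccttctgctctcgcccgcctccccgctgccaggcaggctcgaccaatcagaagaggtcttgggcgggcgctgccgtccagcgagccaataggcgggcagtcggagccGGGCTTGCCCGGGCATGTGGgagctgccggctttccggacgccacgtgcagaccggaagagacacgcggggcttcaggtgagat
RefSeq windows were found for 25 of the 32 members. A perfect p53 half-site of 10 bases stood in 3 of them (AEN, RPS27L and PLK2), 12% of them, against 6.54% of 27305 promoters. Paired half-sites with a gap of at most 13 bases and at most 2 mismatches were found in 1 member (4%), against 2.94% of all promoters. None of the 4 called members had either in this window. TATAAA was found in GDF15 alone among the 25, against 12% of all promoters, and its first base lay 29 bases before the start. GGGCGG stood in 22 of the 25, against 44.6% of all promoters, and TP53I3 and DDB2 were among those without it. CCAAT occurred 3 times in DDB2 and in 10 of the 25 members, against 35.7% of all promoters. A match describes letters and not a bound site.

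TP53I3 and DDB2 had the same outline across the groups: low in both G1 arrests and both CDT groups, high in both S arrests and G2/M. TP53I3 encodes a quinone oxidoreductase that raises reactive oxygen. Its levels were 3.00, 1.87 and 3.51 for early G1, 3.90, 3.69 and 4.70 for late G1, 5.86 and 5.74 for early S and 5.17, 6.98 and 6.78 for late S. The G2/M arrays of TP53I3 had 5.87, 6.15 and 5.66, against 3.82, 4.06 and 3.50 for CDT + DHT and 1.50, 3.62 and 2.53 for CDT. All 8 arrays of the S and G2/M arrests lay above the other 12. The share of all genes with this order was not examined here. Over CDT TP53I3 rose by 3.76 ± 0.60 in late S (log2 difference ± SE from limma, 13.5-fold, adjusted p = 0.0198). The G2/M rise over CDT was 3.34 ± 0.60 (10.1-fold, limma adjusted p = 0.0290). With 16 in place of 1 added to the intensity, these differences were 2.157 in late S and 1.785 in G2/M. The size of both folds thus depends on the value added, as TP53I3 was dim in CDT. In early S the difference of 3.24 ± 0.68 did not pass (adjusted p = 0.157). Among the 5 arrests its moderated F was 11.8 (limma adjusted p = 0.0270).

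DDB2 encodes the damage-binding subunit that finds ultraviolet lesions for nucleotide excision repair. It read 4.28, 4.20 and 5.16 for early G1, 4.84, 4.74 and 5.10 for late G1, 6.58 and 6.48 for early S and 7.02, 7.48 and 7.43 for late S. The G2/M arrays of DDB2 had 6.93, 6.60 and 6.83, against 5.69, 5.46 and 4.58 for CDT + DHT and 4.88, 4.84 and 4.61 for CDT. Here too the 8 arrays of the S and G2/M arrests lay above all others, again with the share of all genes not examined. The late S rise over CDT was 2.53 ± 0.44 (5.79-fold, limma adjusted p = 0.0336). A G2/M difference of 2.00 ± 0.44 from CDT did not pass (0.0935). The F among arrests was 15.1 (adjusted p = 0.0138, limma), and it passed whichever 1 of the 14 arrested arrays was left out (adjusted p 0.0103 to 0.0449). The late S call of DDB2 was lost without any 1 of the 6 arrays (0.0537 to 0.20).

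For TP53I3, leaving out 1 array ended calls too. The late S call was lost without late S replicate 3 (adjusted p = 0.172), CDT replicate 1 (0.144) or CDT replicate 3 (0.141). The G2/M call was lost without each of the compared arrays other than CDT replicate 2 (0.119 to 0.233). The F call of TP53I3 held without early G1 replicate 3 (0.0421) or late S replicate 1 (0.0115), and without each of the other 12 arrested arrays it gave 0.0509 to 0.109. When the fit held the compared groups alone none of these calls passed, at adjusted p = 0.577 and 0.771 in late S against CDT for TP53I3 and DDB2, 0.14 in G2/M for TP53I3, and 0.076 and 0.0691 for their F. Without the 4 arrays of largest score the F of TP53I3 passed (0.0476), and the late S calls of TP53I3 (0.202) and DDB2 (0.361), the G2/M call of TP53I3 (0.0929) and the F of DDB2 (0.0918) did not.

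GDF15, which encodes a secreted stress cytokine of the TGF-β family, was highest in late S. Its levels were 7.96, 8.41 and 8.05 for early G1, 8.64, 9.16 and 8.53 for late G1, 8.40 and 8.55 for early S and 10.44, 10.42 and 10.54 for late S. The G2/M arrays of GDF15 had 9.47, 8.99 and 9.32, against 7.65, 7.90 and 7.67 for CDT + DHT and 8.80, 7.48 and 7.53 for CDT. The 3 late S arrays differed by little and lay above the other 17. Late S arrays lay above all other arrested arrays for 0.505% of all genes, and the share for all 17 was not examined. The late S rise of GDF15 was 2.73 ± 0.44 over CDT + DHT (6.62-fold, adjusted p = 0.0293) and 2.53 ± 0.44 over CDT (5.77-fold, adjusted p = 0.0336), both from limma. Early S, the other replication block, lay within the range of both G1 arrests (7.96 to 9.16). Compared with the other arrests averaged, the late S difference was 1.80 ± 0.36 (adjusted p = 0.119) and the F among arrests was 8.07 (adjusted p = 0.115), so neither passed. The call against CDT + DHT was kept without late S replicate 2 (adjusted p = 0.0265) and lost without any other of the 6 arrays (0.0774 to 0.182). The call against CDT was kept without late S replicate 2 (0.0468) or CDT replicate 1 (0.0272) and lost without the others (0.109 to 0.20). Against CDT + DHT and against CDT the calls were also lost when the fit held the compared groups alone (adjusted p = 0.429 and 0.879) and without the 4 arrays of largest score (0.223 and 0.202). GDF15 was 1 of 2 members whose within-group correlation with the array score was positive (0.53), and TP53I3 had -0.79 and DDB2 -0.36.

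**Figure D1:**
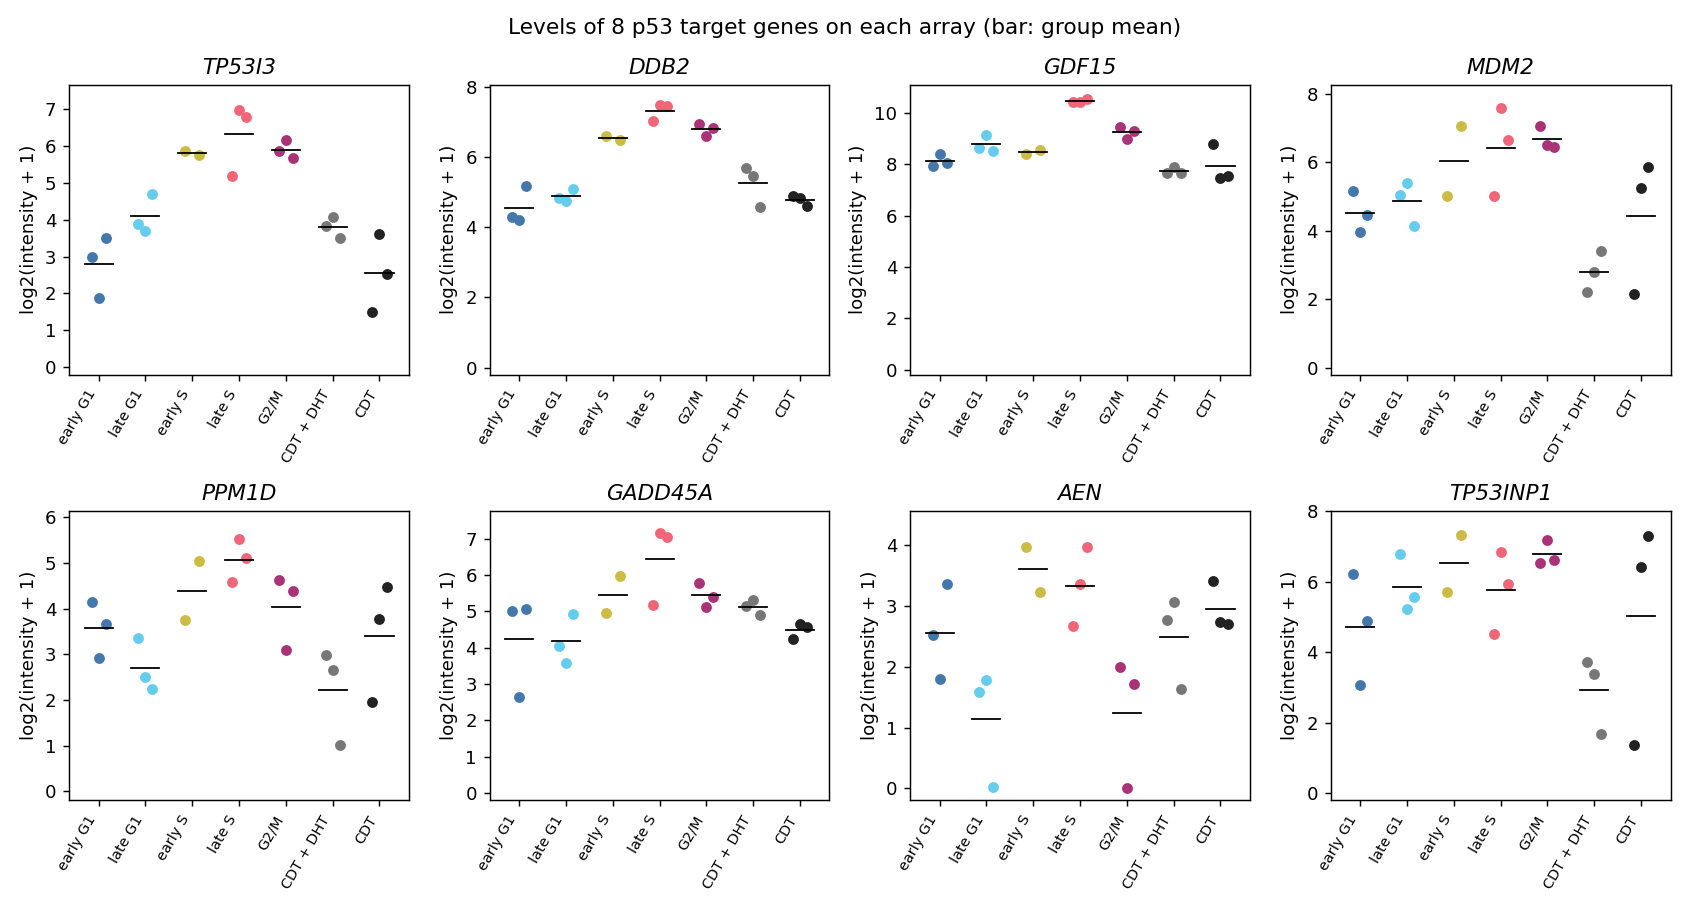
Levels of 8 p53 target genes, log2(intensity + 1), on each of the 20 arrays (points) with group means (bars), groups from left to right in the order of the cell cycle and then CDT + DHT and CDT. TP53I3 and DDB2 lie higher on all 8 arrays of the S and G2/M arrests than on the other 12. The share of all genes with that order was not examined. GDF15 stands out in late S, and MDM2 and TP53INP1 spread widely in CDT.

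Among the genes that restrain p53, MDM2 rose in G2/M over CDT + DHT, and the others gave no call. MDM2 encodes the ubiquitin ligase that marks p53 for destruction. It had levels of 5.18, 3.97 and 4.46 for early G1, 5.04, 5.40 and 4.15 for late G1, 5.02 and 7.06 for early S and 5.01, 7.59 and 6.67 for late S. The G2/M arrays of MDM2 had 7.06, 6.51 and 6.46, against 2.21, 2.80 and 3.43 for CDT + DHT and 2.15, 5.27 and 5.87 for CDT. Every arrested array lay above every CDT + DHT array, while CDT replicate 1 lay below CDT + DHT and the other CDT arrays within the range of the arrests. Early G1, late G1, early S, late S and G2/M arrays, each group alone, lay above CDT + DHT for 7.16%, 10.8%, 15.3%, 6.29% and 15.1% of all genes. The rise of MDM2 in G2/M over CDT + DHT was 3.86 ± 0.83 (14.6-fold, limma adjusted p = 0.0472). With 16 in place of 1 added to the intensity it was 2.397, so the size of the fold depends on the value added. In late S the difference of 3.61 ± 0.83 did not pass (adjusted p = 0.121), nor did 3.23 ± 0.93 in early S (0.436). The G2/M call was lost without any 1 of the 6 compared arrays (adjusted p 0.10 to 0.201). It passed in 10 of the 11 other settings listed below, among them the fit of the compared groups alone (limma adjusted p = 0.0239). The replicate block ended it (0.0625).

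PPM1D encodes the phosphatase Wip1, which switches off p53 and the checkpoint kinases. Levels were 4.14, 2.93 and 3.66 for early G1, 3.37, 2.51 and 2.25 for late G1, 3.74 and 5.05 for early S and 4.59, 5.52 and 5.11 for late S. The G2/M arrays of PPM1D had 4.64, 3.10 and 4.39, against 2.99, 2.66 and 1.02 for CDT + DHT and 1.95, 3.77 and 4.48 for CDT. The late S arrays lay above the CDT + DHT arrays, as for 6.29% of all genes, with a difference of 2.85 ± 0.69 (limma adjusted p = 0.146). In late G1 it differed from the other arrests by -1.56 ± 0.55 (adjusted p = 0.275). CCNG1, the gene of cyclin G1, a partner of MDM2, differed between late S and CDT + DHT by 1.73 ± 0.51 (adjusted p = 0.28). FBXO22, an F-box gene of a ubiquitin ligase, ran from 8.13 to 8.34 in late S, against 6.39 to 6.97 in CDT + DHT, and the difference of 1.61 ± 0.46 did not pass (adjusted p = 0.244). For all 4 genes of this role the difference from CDT + DHT was above 0 in each of the 5 arrests, from 0.43 in early G1 (FBXO22) to 3.86 in G2/M (MDM2). These differences share the 3 CDT + DHT arrays, where the mean of each of the 4 genes lay below its CDT mean (median -1.02). Against CDT, 3 of the 4 were above 0 in early G1, 2 in late G1 and 4 in each other arrest.

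Among genes of growth arrest, GADD45A encodes a product that takes part in cell cycle arrest and repair. The gene had 5.01, 2.64 and 5.07 for early G1, 4.05, 3.57 and 4.94 for late G1, 4.95 and 5.97 for early S and 5.17, 7.14 and 7.04 for late S. The G2/M arrays of GADD45A had 5.79, 5.13 and 5.40, against 5.16, 5.31 and 4.90 for CDT + DHT and 4.23, 4.66 and 4.57 for CDT. The late S arrays lay above the CDT arrays, as for 4.01% of all genes, and the difference of 1.96 ± 0.65 did not pass (adjusted p = 0.555). PLK2 and PLK3 encode stress-responsive polo-like kinases. PLK3 levels were 1.50, 0.69 and 2.84 for early G1, 0.028, 3.16 and 0.27 for late G1, 3.09 and 1.12 for early S and 0.004, 2.24 and 0.73 for late S. The G2/M arrays of PLK3 had 2.90, 2.75 and 3.37, against 3.51, 3.21 and 3.17 for CDT + DHT and 1.17, 2.10 and 1.88 for CDT. The CDT + DHT arrays lay above the CDT arrays, as for 7.81% of all genes, and the difference of 1.58 ± 0.79 did not pass (adjusted p = 0.717). PLK2 lay between 4.17 and 6.65 in the arrests and between 3.18 and 5.46 in the CDT groups, with differences of 0.51 to 1.25 in every arrest against either, none of which passed. ZMAT3 is the gene of an RNA-binding zinc finger protein. ZMAT3 levels were 3.06, 0.040 and 2.69 for early G1, 3.76, 4.22 and 4.26 for late G1, 3.26 and 3.05 for early S and 0.31, 2.65 and 2.81 for late S. The G2/M arrays of ZMAT3 had 3.25, 3.21 and 2.49, against 3.34, 3.08 and 0.96 for CDT + DHT and 1.34, 2.61 and 3.44 for CDT. Its late G1 arrays lay above the other 17. Late G1 arrays lay above all other arrested arrays for 0.619% of all genes, and the share for all 17 was not examined. For ZMAT3 late G1 differed from the other arrests by 1.58 ± 0.66 (limma adjusted p = 0.388).

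The other repair genes had their highest group means in early S. POLH encodes the polymerase that copies past lesions. POLH levels were 3.46, 2.69 and 4.59 for early G1, 1.46, 3.08 and 3.90 for late G1, 5.37 and 5.05 for early S and 2.34, 5.00 and 4.63 for late S. The G2/M arrays of POLH had 3.59, 4.89 and 3.47, against 4.33, 3.79 and 2.47 for CDT + DHT and 3.44, 3.99 and 3.30 for CDT. The early S difference from CDT was 1.64 ± 0.85 (adjusted p = 0.911). XPC, which recognises helix-distorting damage, ran from 5.26 to 6.12 in early S, against 3.74 to 4.91 in CDT (1.33 ± 0.84, adjusted p = 0.912). In late G1 the difference from the mean of the other 4 arrests was -1.40 ± 0.35 for DDB2 (adjusted p = 0.0754), -1.52 ± 0.60 for XPC (0.352) and -1.38 ± 0.60 for POLH (0.416), and none passed. The late G1 mean of DDB2 (4.89) lay above its early G1 mean (4.55), while XPC and POLH had their lowest arrest mean in late G1. Without late S replicate 1 the DDB2 difference passed (-1.44, adjusted p = 0.0498).

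Of the 12 cell death genes none passed in any comparison. AEN, which encodes a nuclease that promotes apoptosis, had the fourth largest F of the members (5.71, adjusted p = 0.292). It showed 2.53, 1.80 and 3.36 for early G1, 1.59, 1.79 and 0.024 for late G1, 3.98 and 3.24 for early S and 2.68, 3.37 and 3.97 for late S. The G2/M arrays of AEN had 1.99, 0.007 and 1.72, against 2.78, 3.07 and 1.63 for CDT + DHT and 3.41, 2.74 and 2.71 for CDT. Its late G1 and G2/M arrays all lay below those of early S, late S and CDT. Arrays of late G1 lay below those of CDT for 10.1% of all genes, and arrays of G2/M for 7.55%. AEN was dim (mean 2.42 over all arrays), and 0.024 and 0.007 lie at the bottom of the scale. The differences from CDT were -1.82 ± 0.65 for late G1 and -1.71 ± 0.65 for G2/M (adjusted p = 0.366 and 0.564). AEN thus lay low in the G2/M arrays, in which TP53I3, DDB2 and MDM2 lay high. TP53INP1 encodes a product that aids p53 phosphorylation and autophagy. TP53INP1 levels were 6.22, 3.06 and 4.90 for early G1, 6.78, 5.22 and 5.57 for late G1, 5.72 and 7.32 for early S and 4.51, 6.84 and 5.95 for late S. The G2/M arrays of TP53INP1 had 6.52, 7.19 and 6.62, against 3.74, 3.38 and 1.69 for CDT + DHT and 1.37, 6.41 and 7.29 for CDT. The G2/M difference from CDT + DHT was 3.84 ± 1.14 (adjusted p = 0.132). Its CDT arrays had the widest spread of any member in any group (SD 3.19), and the difference of -2.09 between CDT + DHT and CDT had an SE of 1.14 (adjusted p = 0.739).

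The death receptor genes FAS, TNFRSF10A and TNFRSF10B differed from CDT by -0.07 to 1.01 in the 5 arrests, the largest being that of TNFRSF10B in late S. TNFRSF10A levels were 3.08, 3.21 and 3.13 for early G1, 2.21, 2.37 and 1.84 for late G1, 2.04 and 3.89 for early S and 0.58, 3.54 and 3.19 for late S. The G2/M arrays of TNFRSF10A had 4.02, 2.89 and 2.01, against 3.88, 3.19 and 1.57 for CDT + DHT and 2.47, 2.79 and 1.38 for CDT. Its largest difference from CDT was 0.93 ± 0.77 in early G1 (adjusted p = 0.978). TRIAP1, which encodes an inhibitor of apoptosis in mitochondria, lay at 8.31 to 9.34 in late G1, early S, late S and G2/M, above all 3 CDT + DHT arrays (7.21 to 7.48). So did 10.8%, 15.3%, 6.29% and 15.1% of all genes in those groups, each taken alone. The TRIAP1 differences there were 1.40 to 1.51 and none passed (adjusted p 0.247 to 0.621). PHLDA3, a repressor of the kinase AKT, went the other way against CDT + DHT, at -1.62 ± 0.67 in G2/M (adjusted p = 0.263). PERP, a desmosomal membrane protein gene, ran from 7.90 to 8.29 in late S and from 7.96 to 8.07 in G2/M, against 6.44 to 7.39 in CDT + DHT, with no call. CYFIP2, EDA2R, RPS27L and TP53I11 had differences of -0.83 to 1.64 against CDT, with no call.

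Of the metabolic and secreted genes other than TP53I3 and GDF15, none was called. SPATA18 acts in mitochondrial quality control. SPATA18 levels were 2.14, 3.22 and 2.74 for early G1, 3.37, 2.83 and 0.068 for late G1, 4.25 and 4.29 for early S and 1.63, 3.92 and 4.12 for late S. The G2/M arrays of SPATA18 had 2.76, 2.61 and 2.96, against 2.95, 3.25 and 1.33 for CDT + DHT and 1.53, 2.81 and 2.12 for CDT. The early S difference from CDT was 2.12 ± 0.88 (adjusted p = 0.845). TIGAR encodes a product that lowers glycolysis. TIGAR levels were 4.34, 2.66 and 3.78 for early G1, 2.65, 2.90 and 2.05 for late G1, 3.98 and 4.36 for early S and 2.72, 4.41 and 3.07 for late S. The G2/M arrays of TIGAR had 2.65, 4.01 and 3.87, against 2.56, 3.10 and 1.38 for CDT + DHT and 1.28, 3.49 and 1.81 for CDT. Its early S difference from CDT was 1.97 ± 0.75 (adjusted p = 0.797). For both genes the early S arrays lay above the CDT arrays, as they did for 11% of all genes. SESN1, which encodes a sestrin that restrains the growth kinase mTORC1, had differences of -0.41 to -0.16 from CDT and of 0.96 to 1.22 from CDT + DHT in the 5 arrests, with CDT itself spread from 2.68 to 6.14. CES2 is a carboxylesterase gene. CES2 levels were 2.13, 3.34 and 4.55 for early G1, 2.59, 2.48 and 2.49 for late G1, 3.42 and 4.60 for early S and 3.52, 4.85 and 5.14 for late S. The G2/M arrays of CES2 had 3.71, 3.73 and 3.26, against 3.72, 4.26 and 2.81 for CDT + DHT and 3.27, 3.74 and 3.10 for CDT. Its lowest group mean was in late G1, and its F was 2.92 (adjusted p = 0.725).

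Of the remaining genes, TRIM22 encodes an antiviral ubiquitin ligase. TRIM22 levels were 0.005, 1.44 and 0.52 for early G1, 2.32, 0.008 and 0.003 for late G1, 2.44 and 2.51 for early S and 2.56, 3.42 and 0.005 for late S. The G2/M arrays of TRIM22 had 0.22, 2.98 and 2.26, against 2.89, 2.29 and 0.74 for CDT + DHT and 0.010, 3.12 and 2.22 for CDT. Its early S arrays lay above those of both G1 arrests, late S, G2/M and both CDT groups spread across the range of the early S arrays, and its lowest difference from CDT was -1.12 in early G1 (adjusted p = 0.978). EPHA2, an ephrin receptor gene, had its lowest difference from CDT in late S (-1.20), where its arrays spread from 1.68 to 5.35. BLOC1S2, a gene of lysosome-related organelle biogenesis, differed from CDT by -0.06 to 0.90.

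Against CDT, late S had 3 members called higher (TP53I3, DDB2 and GDF15) and 0 lower, where 0.0977% of all genes were called in either direction. G2/M had 1 (TP53I3), against 0.109% of all genes. Early G1 had 0 (0.00543% of all genes), late G1 0 (0.103%) and early S 0 (0.0326%). At an unadjusted limma p below 0.05 early G1 had 1 member (5.11% of all genes), late G1 2 (9.06%) and early S 4 (5.57%). With arrayWeights 5 members were called in late S, where 205 of all genes were called. With a pseudocount of 16 the counts were 4 in late S, 2 in G2/M and 2 in early S (36, 38 and 23 of all genes). The late S count was 0 without late S replicate 3 or CDT replicate 3, 1 without late S replicate 1, CDT replicate 1 or CDT replicate 2, and 2 without late S replicate 2. The median difference of the 32 members was 0.82 in late S, 0.67 in early S and 0.60 in G2/M, beside -0.10, 0.07 and -0.05 over all genes. In early G1 it was -0.03 and in late G1 0.03, beside -0.04 and -0.15 over all genes. The number of members above 0 was 27 in late S, 28 in early S, 28 in G2/M, 15 in early G1 and 16 in late G1. In that order these were 84.4%, 87.5%, 87.5%, 46.9% and 50%, beside 44.5%, 53.1%, 47.2%, 47.9% and 42.6% of all genes. Without CDT replicate 1 the median was 0.14 in G2/M, 0.37 in early S and 0.62 in late S, and the late G1 median turned to -0.40. CDT replicate 1 had the lowest member mean of the 20 arrays (3.58), and the other CDT arrays had 4.67 and 4.51. The early S median was 1.13 without early S replicate 1 and 0.44 without early S replicate 2, and the early G1 median lay between -0.36 and 0.43. Members whose late S arrays all lay above CDT numbered 10, against 4.01% of all genes, and those whose G2/M arrays did so numbered 9, against 6.64%.

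Against CDT + DHT, where drug and medium differ and the closing 3 h of DHT are shared, 1 member was called in late S (GDF15, 0.0706% of all genes called) and 1 in G2/M (MDM2, 0.44%). The count was 0 in the early G1 arrest (0% of all genes), 0 for late G1 (0.516%) and 0 for early S (0.00543%). Before adjustment limma gave 0 members with p below 0.05 for early G1 (8.07% of all genes), 6 for late G1 (14%) and 8 for early S (7.62%). The member medians were 0.20 for early G1, 0.30 for late G1, 0.73 for early S, 0.88 for late S and 0.58 for G2/M, beside -0.02, -0.07, 0.06, -0.01 and -0.05 over all genes. The early G1 median turned to -0.08 without early G1 replicate 3 and to -0.22 without CDT + DHT replicate 3. The late S median was 1.38 without late S replicate 1, and without CDT + DHT replicate 3 it was 0.54 in late S, 0.37 in G2/M and 0.015 in late G1. Counts in this comparison depended on the weighting of arrays: with arrayWeights 12 members were called in late S and 8 in G2/M, and with the array score as a covariate 7 and 8. Of all genes, 1776 and 1669 were called with arrayWeights, and 226 and 1462 with the score. That score is made from the same residuals as the test, so its p-values are too small. The comparisons with CDT and with CDT + DHT share the arrested arrays.

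**Figure D2:**
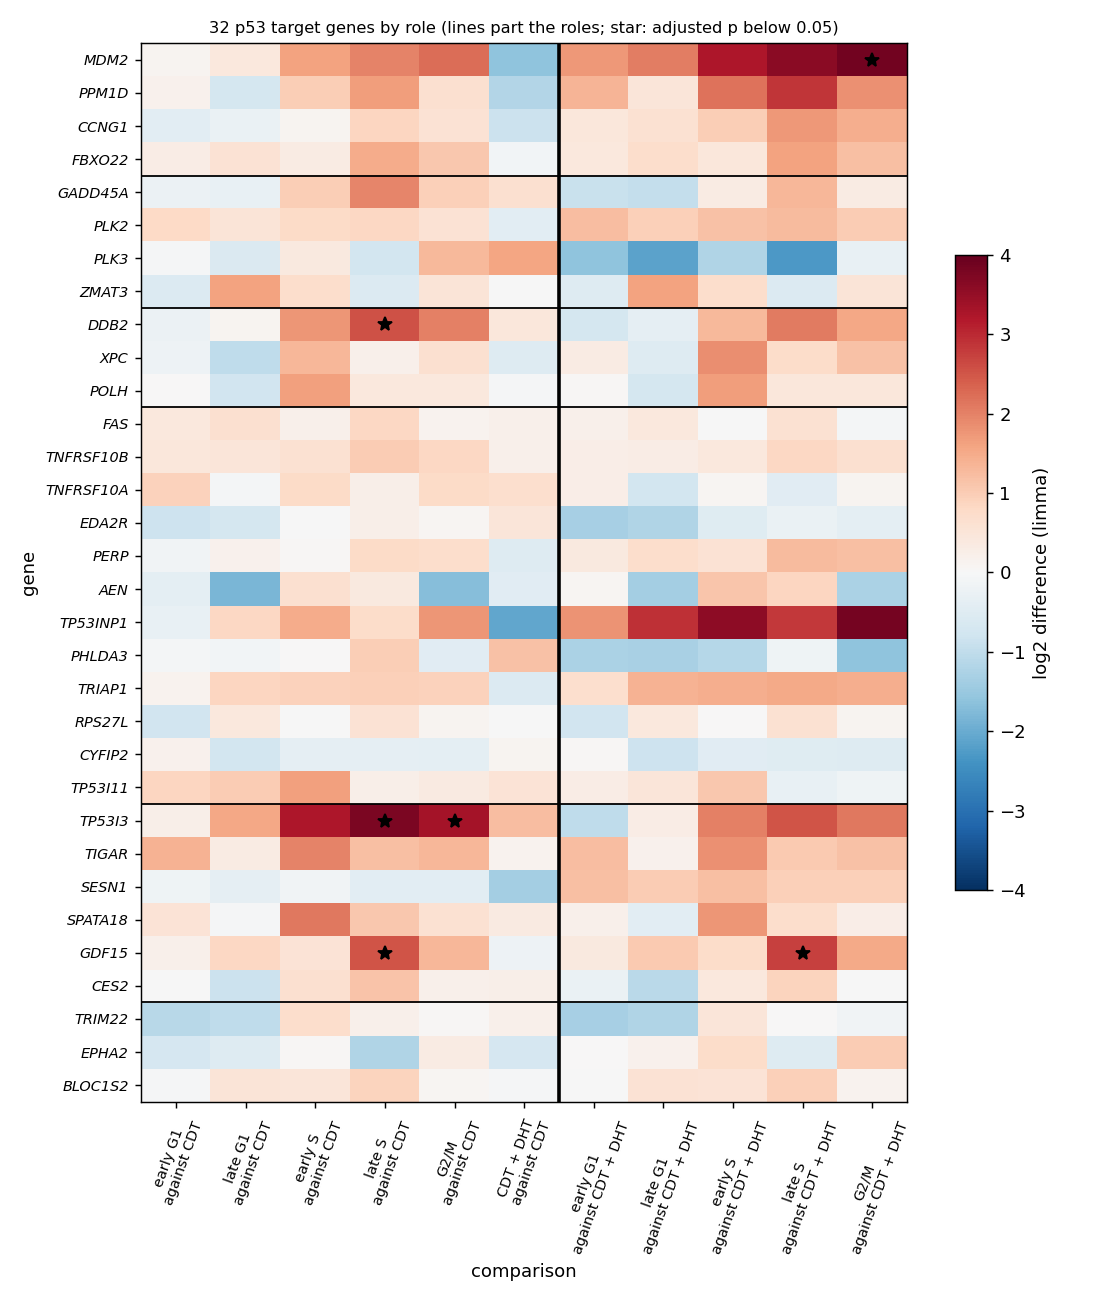
Log2 differences (colour, limma) of the 32 members, ordered by role from top to bottom (restraint of p53, growth arrest, DNA repair, cell death, metabolism and stress signal, other), with the comparisons against CDT left of the thick line and those against CDT + DHT right of it. Stars mark the 6 calls, which are TP53I3, DDB2 and GDF15 in late S and TP53I3 in G2/M against CDT, and GDF15 in late S and MDM2 in G2/M against CDT + DHT.

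With DHT as the difference between groups, no member passed. In CDT + DHT against CDT 0 members were called (0% of all genes), and before adjustment 0 had a limma p below 0.05 (6.86% of all genes). Leaving out the 4 arrays of largest score gave 1 call. The median was -0.01, beside -0.09 over all genes, with 15 members (46.9%) above 0, beside 44.8% of all genes. The largest differences were -2.09 (TP53INP1), -1.62 (MDM2) and 1.58 (PLK3), and for each of these genes replicate 1 lay lowest in CDT. TP53I3 differed by 1.24 ± 0.60 with overlapping arrays (adjusted p = 0.717).

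Set against the mean of the other arrests, 0 members were called in any arrest, where the share of all genes called was 0% for early G1, 0.706% for late G1, 0% for early S, 0.0271% for late S and 0.0271% for G2/M. At an unadjusted limma p below 0.05 there were 6 members for early G1, 10 for late G1, 3 for early S, 10 for late S and 4 for G2/M. The share of all genes at that level was 2.47%, 10.5%, 3.88%, 6.92% and 5% in the same order. The 6 in early G1 were all lower, and 9 of the 10 in late G1 were lower, with ZMAT3 the exception. The 10 in late S were all higher. With arrayWeights 7 members were called in late S and 1 in late G1, where 870 and 377 of all genes were called. The median was -0.49 for early G1, -0.52 for late G1, 0.39 for early S, 0.52 for late S and 0.20 for G2/M, beside 0.05, -0.09, 0.17, -0.05 and 0.04 over all genes. Without early G1 replicate 2 the early G1 median was -0.16, without late G1 replicate 3 the late G1 median was -0.20, without late S replicate 2 the late S median was 0.09, and without early S replicate 2 the early S median turned to -0.12. The early S median was 0.80 without early S replicate 1, and the late S median 0.80 without late S replicate 1. Among the 5 arrests the moderated F called 2 members, DDB2 and TP53I3 (0.255% of all genes), while 7 had p below 0.05 before adjustment (6.89% of all genes). TP53I3 was the single member whose 3 early G1 arrays lay below all 11 other arrested arrays (-2.73 ± 0.48, adjusted p = 0.294), as did 0.157% of all genes.

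**Figure D3:**
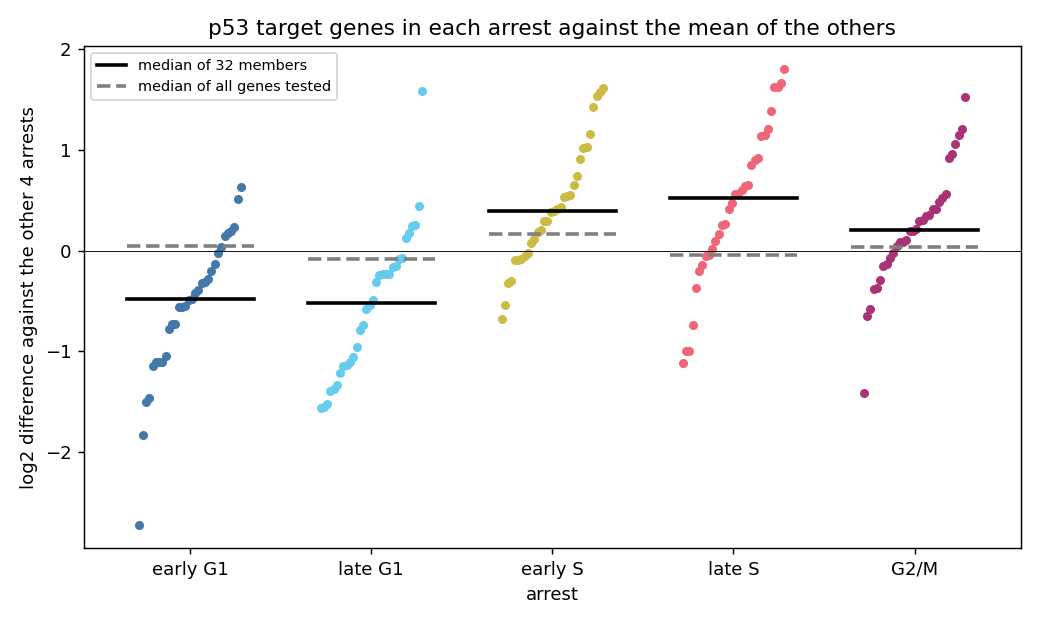
Log2 difference of each of the 32 members (points, sorted within an arrest) from the mean of the other 4 arrests, with the median of the members (solid bar) and of all 18417 genes (dashed bar). The members' median lies below 0 in early G1 (-0.49) and late G1 (-0.52) and above 0 in early S (0.39), late S (0.52) and G2/M (0.20).

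The members did not move as 1 block. Over the 20 arrays the 496 pairs had a median Pearson correlation of 0.29, with 30 pairs above 0.7 and 87 below 0, values that share the array score described above. TP53INP1 and TRIAP1 correlated at 0.91 over arrays and at 0.88 within groups. DDB2 and TP53I3 also correlated at 0.91 over arrays, but at 0.49 within groups and at 0.96 over the 7 group means. FBXO22 and GDF15 followed with 0.88 over arrays, 0.47 within groups and 0.98 over group means. PLK2 and SESN1, at 0.82 over arrays, correlated more within groups (0.90) than over group means (0.64).

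**Figure D4:**
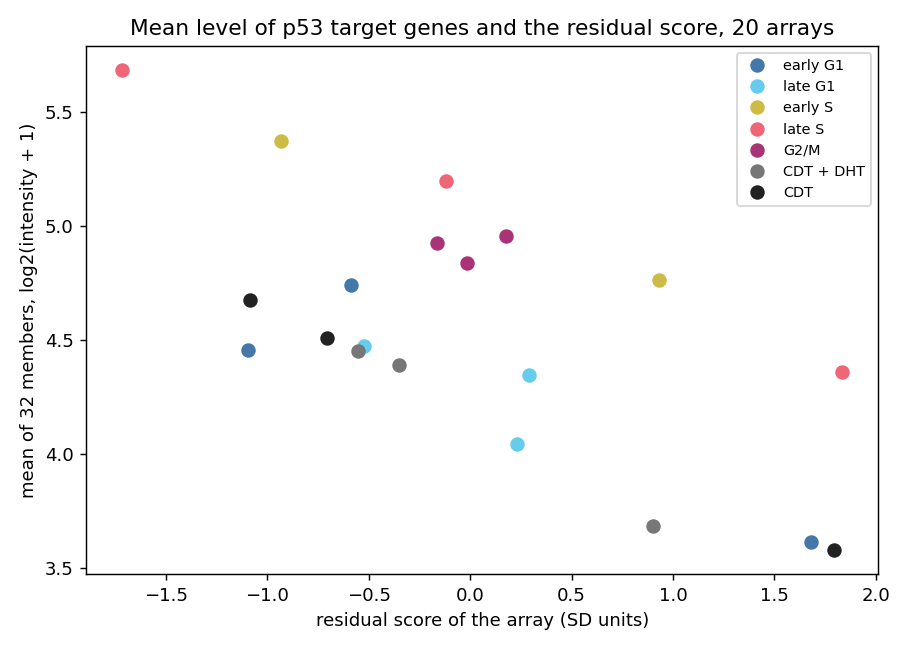
Mean level of the 32 members, log2(intensity + 1), against the array's score on the shared within-group axis, one point per array coloured by group. The mean is lower where the score is higher in most groups, as in late S, with 5.68 on late S replicate 2 (score -1.71) and 4.36 on late S replicate 1 (1.83), and the 3 G2/M arrays lie close together at 4.84 to 4.95.

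Other targets of p53, from a list of 24 of which 22 were measured, held 1 gene that passed, in late S against CDT and in the F among arrests. CDKN1A, which encodes the kinase inhibitor p21, lay at 8.34, 8.94 and 9.28 in late S, against 5.36, 5.97 and 3.60 in CDT, and rose by 3.88 ± 0.59 (limma adjusted p = 0.0123). It lay at 8.44 and 8.54 in early S and at 7.52, 8.13 and 7.54 in G2/M, at 4.26, 5.16 and 6.23 in early G1, at 6.16, 5.66 and 6.15 in late G1, and at 6.73, 6.46 and 6.12 in CDT + DHT. Its F was 13.6 (limma adjusted p = 0.0166). The late S call of CDKN1A was lost when the fit held the compared groups alone, where 0 of all genes were called. How its calls fared in the other alternatives is not given here. The 8 arrays of the S and G2/M arrests lay above the other 12, as they did for TP53I3 and DDB2. The list's median difference from CDT was 0.30 in late S, with 12 of 22 (54.5%) above 0, beside 44.5% of all genes. In G2/M it was 0.044, with 11 (50%) above 0, beside 47.2% of all genes. In early S it was 0.351, with 15 (68.2%) above 0, beside 53.1% of all genes. Of 21 listed genes of the p53 pathway upstream of its targets 19 were measured, and none was called in any comparison, the smallest adjusted p being 0.151. Their median difference from CDT was -0.24 in late S and 0.39 in G2/M.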

How the data were processed

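RNA of LNCaP cells was amplified and hybridised to 20 Affymetrix arrays, 1 per sample. The authors deposited linear intensities for 33297 transcript clusters, and the submitters' processing notes name Affymetrix Expression Console 1.1. The sources used here do not give the probe summary method or any normalization between arrays. That table holds no detection calls and no counts, so the number of arrays limits the precision.

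Of the clusters, 19460 had 1 gene symbol in the platform annotation, 1754 had several and 12083 were not listed. Those with 1 symbol gave 18417 genes, and for the 769 genes with several clusters the one with the highest mean was kept. Intensities were taken as log2(intensity + 1), which shrinks the fold changes of dim genes. Limma 3.58.1 in R 4.3.3 fitted 1 coefficient per group to all 20 arrays, with eBayes and Benjamini-Hochberg adjustment over all genes within each comparison at a threshold of 0.05. The fit was tested on simulated data. Each arrest was compared with CDT, CDT + DHT and the mean of the other arrests, CDT + DHT with CDT, and the arrests by a moderated F.

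The labels do not say that replicates are separate cultures, so p-values measure the spread between these arrays, which may be technical. Replicate numbers did not pair the samples: over 57 same-numbered pairs the correlation of deviations was -0.74 to 0.71 (median -0.02), with 20 above 0.1. The members and lists were chosen with earlier results of these data known. Every member may be named by its range. Values on every array are given for members that passed in any test, the 3 with the largest absolute difference in each comparison, the 8 with the largest F, and CDKN1A. Alternatives were a pseudocount of 16, quantile normalization, median centring, dim genes left out, the mean of a gene's clusters, trended robust eBayes, arrayWeights, a replicate block, the residual score as a covariate, only the compared groups, and each array left out. Leaving out the 4 arrays with the largest residual score was chosen after seeing the data. Promoter windows are RefSeq's, of GRCh38.p14.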

Additional observations from a re-analysis of the deposited data

How the results depend on the processing

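Of 5241 values of named genes under the alternatives, 0 reversed a called direction, 59 lost a call and 94 gained one. Most of the 5241 belonged to results without a call, which could not lose one. A called difference had 11 other settings and 6 fits with 1 array left out, and a called F had 11 and 14. The 59 losses fell among these alone. Counts of members called moved too. With the 4 arrays of largest residual score left out, which leaves 1 late S array assumed to vary like the other groups, they were 0 for late S and 0 for G2/M against CDT, 1 for late G1, 0 for late S and 4 for G2/M against CDT + DHT, 1 in CDT + DHT against CDT, and 1 by the F. With arrayWeights they were 5 for late S and 2 for G2/M against CDT (205 and 58 of all genes). They were 1 for late G1, 12 for late S and 8 for G2/M against CDT + DHT (1079, 1776 and 1669 of all genes). Against the other arrests they were 1 for late G1 and 7 for late S (377 and 870), and 5 by the F (357). With median centring they were 1 for early S and 2 for G2/M against CDT (11 and 27 of all genes). They were 2 for late S against CDT + DHT (23 of all genes) and 1 for late G1 against the other arrests (165). Without dim genes they were 2 for G2/M against CDT (30 of all genes kept). They were 2 for late S and 3 for G2/M against CDT + DHT (median difference 1.09), where 26 and 223 genes were called. Against the other arrests they were 2 for early G1, 1 for late G1 and 2 for late S (2, 205 and 13 genes). With trended robust eBayes they were 2 for G2/M against CDT (52 of all genes). They were 4 for late S and 2 for G2/M against CDT + DHT (53 and 349 of all genes). Against the other arrests they were 2 for early G1, 1 for late G1 and 1 for late S (3, 193 and 12). With only the compared groups they were 0 for late S and 0 for G2/M against CDT (0 and 11 of all genes). They were 0 for late S and 3 for G2/M against CDT + DHT (0 and 404 of all genes), and 0 by the F (14). With a pseudocount of 16 they were 2 for early S and 2 for G2/M against CDT (23 and 38 of all genes). They were 4 for late S and 5 for G2/M against CDT + DHT (62 and 324 of all genes). Against the other arrests they were 2 for early G1, 1 for late G1 and 2 for late S (9, 164 and 22). Quantile normalization gave 2 for late S against CDT + DHT (19 of all genes). The replicate block gave 1 for late S and 0 for G2/M against CDT (5 and 7 of all genes). For late S and G2/M against CDT + DHT the block gave 0 and 0 (0 and 2 of all genes). Under it adjusted p was 0.0723 for DDB2 and 0.0723 for GDF15 in late S and 0.0559 for TP53I3 in G2/M against CDT, and 0.0804 for GDF15 in late S and 0.0625 for MDM2 in G2/M against CDT + DHT. The residual score as a covariate gave 1 for early S and 2 for G2/M against CDT (20 and 138 of all genes). Against CDT + DHT it gave 3 for late G1, 4 for early S, 7 for late S and 8 for G2/M (1052, 493, 226 and 1462). Against the other arrests it gave 1 for early G1, 1 for late G1 and 2 for late S (1, 358 and 20). The cause was not tested.

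With 1 array left out at a time the counts ranged from 0 to 2 for late S and 0 to 1 for G2/M against CDT, from 0 to 1 for late S and 0 to 0 for G2/M against CDT + DHT, from 0 to 1 for late G1 against the other arrests, and from 1 to 2 by the F. The median difference ranged from -0.118 to 0.799 for early S against the other arrests and from 0.539 to 1.382 for late S against CDT + DHT.

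Over all genes, G2/M against CDT + DHT had 81 calls, 1669 with arrayWeights, 1462 with the residual score and 2 with the replicate block. Late S against CDT had 18, 205 with arrayWeights and 0 with only the compared groups, and late S against CDT + DHT had 13, 1776 with arrayWeights and 0 with the block. Late G1 against CDT + DHT had 95, 1079 with arrayWeights and 0 with only the compared groups. The F called 47 genes, 357 with arrayWeights and 14 with only the compared groups.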
